A study of Mus musculus with 4 samples.

Results

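The 10 genes described here encode histone deacetylases of class I (Hdac1, Hdac2, Hdac3 and Hdac8), class IIa (Hdac4, Hdac5, Hdac7 and Hdac9), class IIb (Hdac6) and class IV (Hdac11). They were taken by symbol from a table of 78334 mouse gene identifiers, and all 10 were found and were among the 11427 genes with enough counts to be tested. Messenger RNA was sequenced from retinal ganglion cells of wild-type mice, which send their axons through the optic nerve, 2 weeks after that nerve was crushed. Mice of both sexes, 8 to 12 weeks old, had received 2 µl per eye of an adeno-associated virus of serotype 2 at 8 weeks of age, 2 weeks ahead of the crush. In the control group the virus carried a scramble shRNA, and in the other group its cargo was an anti-miR132-3p shRNA, meant to bind and block the microRNA miR-132-3p. Both vectors also expressed mCherry, and the promoter that drives each hairpin is not given in the sources used here. All groups were injured and injected, so no uninjured or uninjected level is known for any gene below.

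Each group was built from 10 pooled retinas, panned for Thy1 and sorted for mCherry, with about 5000 cells for each of 2 libraries. About 40% of ganglion cells were transduced, per the labels. Library totals were 1731199 to 1846637 counts. The 2 libraries of a group agreed within the sampling noise of their counts (chi-square per degree of freedom 1.02 for scramble, p = 0.0954, and 1.00 for anti-miR132-3p, p = 0.486). Pairs of libraries from different groups gave 4.01 to 4.03. For this reason a pair counts as 1 sample, n is 1 per group, no SD is given, and no difference has a replicate check. The labels do not tie the libraries to separate animals. The 95% intervals below cover counting error only, and an adjusted p-value speaks for the reads of the libraries and not for the conditions. Which columns are scramble rests on exclusion, because those columns are named for mCherry and the others for miR132.

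Histone deacetylases remove acetyl groups from lysines of histones and other proteins. Class I enzymes act in the nucleus, where Hdac1 and Hdac2 are closely related subunits of the Sin3, NuRD and CoREST corepressor complexes and Hdac3 belongs to NCoR complexes. Class IIa enzymes move between nucleus and cytoplasm under the control of kinases and 14-3-3 proteins and repress MEF2 transcription factors. Hdac6 acts in the cytoplasm on tubulin, and Hdac11, the only class IV enzyme, is known for removing long fatty acyl groups from lysine. In ganglion cells after axon injury, Hdac3 enters the nucleus as histones lose acetylation, and its loss is known to protect these cells.

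The microRNA and the hairpin inserts are shown because the design turns on them. The first is the mature microRNA from RefSeq (GRCm38.p6, chromosome 11, bases 75173723 to 75173744, plus strand) with its seed, bases 2 to 8, in capitals. The second is the anti-miR132-3p insert, with the complement of that seed in capitals. The scramble insert does not hold this complement on either strand.
mmu-miR-132-3p: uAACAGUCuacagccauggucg
anti-miR132-3p insert: cgaccatggctgtaGACTGTTa
scramble insert: tcgagggcgacttaaccttagg

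Libraries of polyadenylated RNA do not measure the mature microRNA, and Mir132 had 0 counts in each library, so the targeting cannot be checked here. The 3' UTRs of the members' longest coding transcripts in GENCODE M21 were searched, on the transcript's own strand, for the 8mer GACTGTTA, the 7mer-m8 GACTGTT and the 7mer-A1 ACTGTTA, each 7mer counted only outside an 8mer. Of the 10 members, 2 (20%) held a match, against 22.8% of 10379 tested genes with an annotated 3' UTR. Hdac3 held an 8mer at base 302 of its 642-base UTR. Hdac2 held a 7mer-A1 at base 1448 of its 2153-base UTR, shown here with the match in capitals.
Hdac2 site: tttaggagctatatACTGTTAgtgttct

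The other 8 members had none of these letters in that UTR. A match is a description and not a measured site.

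Hdac11, Hdac5 and Hdac6 were higher and Hdac2 was lower with the anti-miR132-3p shRNA, and the other 6 genes did not pass the test. edgeR's quasi-likelihood test with Benjamini-Hochberg adjustment over 11427 genes called 3 of 10 members higher, where 13.5% of all tested genes were called higher, and 1 lower, where 10.4% were. At least 1.5-fold higher were 2 members, Hdac5 and Hdac11, against a background of 12.5%, and 0 were at least 1.5-fold lower, against 5.02%. In CPM, counts scaled by the TMM method to a common library size, both anti-miR132-3p libraries lay above both scramble libraries for 6 members, as for 31.3% of all tested genes, and below for 2, as for 30.6%. The median log2 fold change of the members was 0.25, and that of all tested genes was -0.003. With any 1 of the 4 libraries left out, edgeR's test called 0 of all genes tested, and 2 to 4 members and 2652 to 2767 genes had an unadjusted p under 0.05. DESeq2 called Hdac11 alone of the members.

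**Figure D1:**
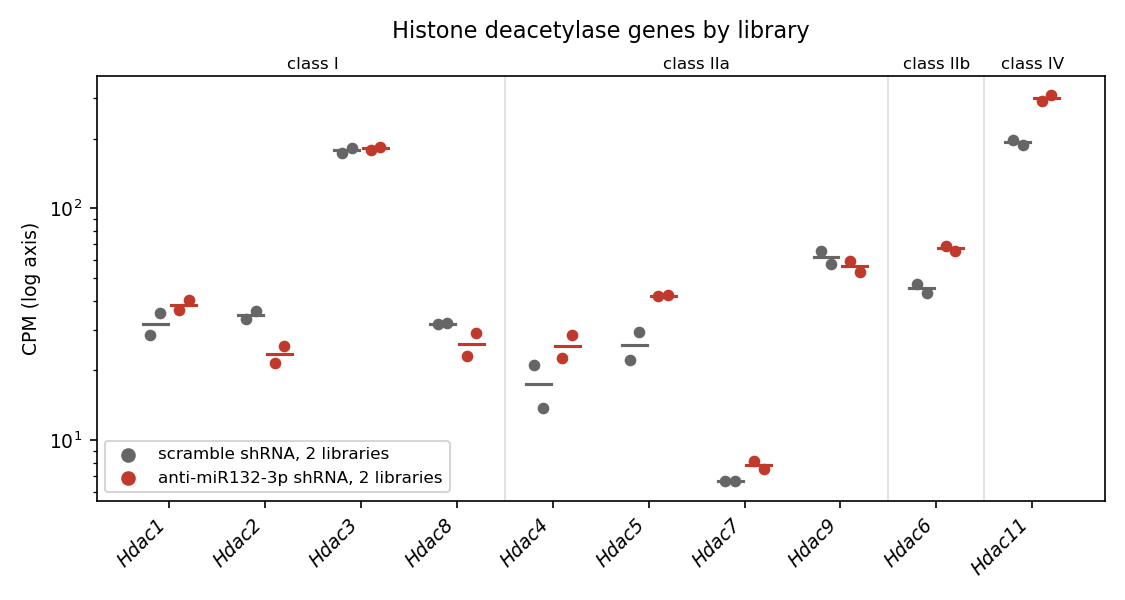
CPM of each histone deacetylase gene (log axis) in the 2 scramble libraries (grey) and the 2 anti-miR132-3p libraries (red), with bars at the value of the summed pair. Hdac11 and Hdac3 stand above the rest. Both red points lie above both grey ones for 6 members, as for 31.3% of all tested genes, and below for 2, as for 30.6%.

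Among the class I genes, Hdac2 was the only member called. Hdac2 was counted 60 and 65 times in the scramble libraries and 37 and 44 times in the anti-miR132-3p libraries. Both anti-miR132-3p libraries lay under both scramble libraries, as for 30.6% of all tested genes in CPM. From 34.6 to 23.5 CPM, Hdac2 was 1.47-fold lower (1.11 to 1.97; adjusted p = 0.0462 by edgeR), close to the threshold. Hdac1, its partner in the same complexes, had 51 and 64 counts against 63 and 69. In CPM the Hdac1 libraries of the groups did not overlap, but the fold of 1.20 (0.929 to 1.56) did not pass the test (adjusted p = 0.308 by edgeR).

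The balance of the Hdac1 and Hdac2 counts moved with these values. Hdac1 counts per Hdac2 count came to 0.920 (0.708 to 1.20) with the scramble shRNA and 1.63 (1.23 to 2.18) with the anti-miR132-3p shRNA, so the exact intervals did not overlap. This ratio was chosen after the values were seen.

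Hdac3, the class I enzyme linked to ganglion cell death, showed almost no difference under TMM scaling. Its counts were 313 and 330 in the scramble libraries and 309 and 316 in the anti-miR132-3p libraries. The CPM values of the groups, 174 and 183 against 179 and 183, overlapped. Its fold was 1.02 with an interval of 0.910 to 1.14 (adjusted p = 0.834 by edgeR). With the correction for GC content and transcript length described below, the fold was 1.11 (0.993 to 1.24; adjusted p = 0.177 by edgeR). Hdac3 is the member whose annotated 3' UTR holds the 8mer described above, and whether that match acts as a site was not tested.

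Hdac8, an X-linked class I enzyme that deacetylates the cohesin subunit Smc3, had 57 and 58 counts against 40 and 50. Both anti-miR132-3p libraries were lower, but the value of 1.22-fold lower (0.918 to 1.63) did not pass the test (adjusted p = 0.309 by edgeR). Summed over class I, the counts came to 998 and 928, a fold of 0.974 (0.889 to 1.07).

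Of the class IIa genes, Hdac5 was called higher and the other 3 were not called. Hdac5, whose export from the nucleus accompanies axon regrowth in sensory neurons, was counted 40 and 53 times in the scramble libraries and 72 and 73 times in the anti-miR132-3p libraries. Both anti-miR132-3p libraries lay above both scramble libraries, as they did for 31.3% of all tested genes in CPM. Hdac5 went from 25.8 to 42.1 CPM, 1.63-fold higher (1.25 to 2.14; adjusted p = 0.0116 by edgeR), a log2 fold change of 0.71.

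Hdac4, a class IIa enzyme kept mostly in the cytoplasm of neurons, had 38 and 25 counts against 39 and 49. In raw counts the higher scramble library was 1 count under the lower anti-miR132-3p library, so the groups barely separated. Its fold was 1.46 (1.05 to 2.05), an interval that left out 1, while the adjusted p of 0.121 by edgeR did not pass. Hdac9, which also makes a short form that lacks the catalytic domain, had 118 and 104 counts against 102 and 92. Its libraries overlapped, and the value of 1.09-fold lower (0.897 to 1.33) did not pass (adjusted p = 0.532 by edgeR). Hdac7, best known from endothelial cells and thymocytes, had 12 and 12 counts against 14 and 13. The interval of its fold, 0.654 to 2.13, allows changes of either sign. The class IIa sum was 402 against 454 counts, 1.18-fold (1.03 to 1.36).

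Hdac6, the class IIb tubulin deacetylase, was called higher. Its counts were 85 and 78 in the scramble libraries against 119 and 113 in the anti-miR132-3p libraries. Both anti-miR132-3p libraries exceeded both scramble libraries, as for 31.3% of all tested genes in CPM. Hdac6 went from 45.2 to 67.3 CPM, 1.49-fold higher (1.21 to 1.83; adjusted p = 0.00551 by edgeR). Hdac6 and Hdac8 are both X-linked, and they lay on opposite sides of 1. The mice were of both sexes. Xist, expressed from the inactive X chromosome, had 179 summed counts against 365, 2.14-fold higher (1.78 to 2.57). Ddx3y, a gene of the Y chromosome, had 520 against 362, 1.37-fold lower (1.20 to 1.57). The part of a different share of female cells in the Hdac6 value was not tested.

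Hdac11 gave the smallest p of the members and the most counts. It was counted 357 and 338 times in the scramble libraries and 499 and 531 times in the anti-miR132-3p libraries. Here too the anti-miR132-3p libraries lay above the scramble libraries, as for 31.3% of all tested genes in CPM. The gap inside a pair is no measure of the spread between animals. Hdac11 went from 193 to 299 CPM, 1.55-fold higher (1.41 to 1.71; adjusted p = 3.41e-06 by edgeR). Its share of all counts on the 10 members was 30.8% (28.9 to 32.7, Clopper-Pearson) with the scramble shRNA and 39.0% (37.1 to 40.8) with the anti-miR132-3p shRNA.

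Hdac11 carried most of the difference in the summed family. Over all 10 members the sum was 626 against 767 CPM, 1.23-fold (1.16 to 1.30). Without Hdac11 the sum of the other 9 was 433 against 468 CPM, 1.08-fold (1.01 to 1.16). The share of Hdac3 in the member counts was 28.5% (26.6 to 30.4) against 23.6% (22.0 to 25.3), though its own level differed little.

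Levels of different members were compared per length, as CPM per kilobase of the longest coding transcript in GENCODE M21. Hdac3 and Hdac11 formed the top pair in both groups and changed places. With the scramble shRNA, Hdac3 was at 87.7 CPM per kilobase (81.0 to 94.7) and Hdac11 at 72.6 (67.3 to 78.2). With the anti-miR132-3p shRNA, Hdac11 was at 113 CPM per kilobase (106 to 120) and Hdac3 at 89.2 (82.4 to 96.5). Per kilobase of all annotated exons, Hdac11 was first in both groups, at 50.0 against 43.9 for Hdac3 with the scramble shRNA, so the order under scramble depends on the length used.

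A wide gap followed the top pair. The next gene was 4.41-fold lower with the scramble shRNA (Hdac8, 16.5 CPM per kilobase) and 4.75-fold lower with the anti-miR132-3p shRNA (Hdac1, 18.8 CPM per kilobase). Under scramble, Hdac8 and Hdac1 did not differ beyond their counting error, nor did Hdac6 and Hdac2, or Hdac4 and Hdac7. With the anti-miR132-3p shRNA the neighbours Hdac1, Hdac6 and Hdac8 did not differ in turn, nor did Hdac5, Hdac2 and Hdac9. Hdac5 stood at rank 8 with the scramble shRNA at 5.31 CPM per kilobase and at rank 6 with the anti-miR132-3p shRNA at 8.67. These places also depend on the length used. Per kilobase of all annotated exons, Hdac5 was at ranks 8 and 7. The gene after the top pair was then Hdac1 with the scramble shRNA (9.25), where Hdac8 was at rank 6, and Hdac6 with the anti-miR132-3p shRNA (11.6). Hdac4 and Hdac7 were lowest in both groups, at 2.15 and 1.57 CPM per kilobase with the scramble shRNA and 3.15 and 1.85 with the anti-miR132-3p shRNA.

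**Figure D2:**
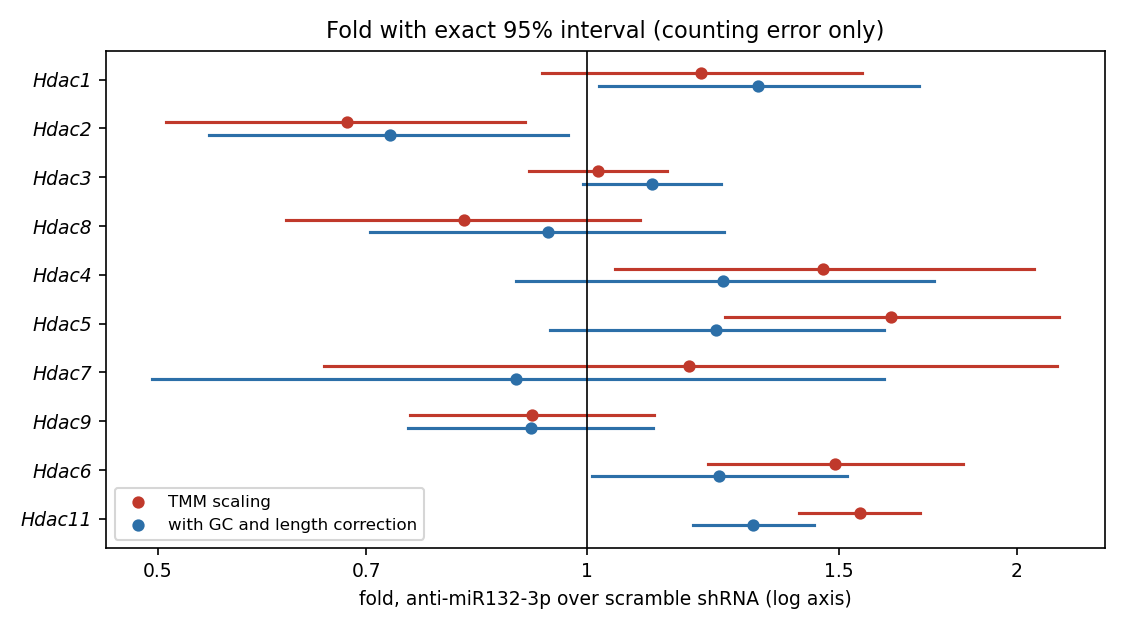
Fold of each member, anti-miR132-3p over scramble (log axis), with exact 95% intervals from summed counts, under TMM scaling (red) and with a correction for GC content and transcript length (blue). Only Hdac11 keeps its call with the correction, at 1.31-fold (1.19 to 1.44).

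The called members lay at the ends of the range of base composition. Hdac11, Hdac5, Hdac6 and Hdac7 have 54.6% to 58.9% GC and lie in the richest of 4 equal bins of tested genes by GC, where 23.0% of genes were called higher and 6.21% lower. Hdac2, at 41.9% GC, lies in the poorest bin, where 6.35% were called higher and 13.6% lower. The median log2 fold change of all tested genes was -0.08 in the poorest bin and 0.18 in the richest. By transcript length it was -0.17 in the bin of the shortest and 0.13 in that of the longest, which holds Hdac4, Hdac5 and Hdac9.

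With each library corrected for GC content and transcript length, 1 member was called higher, against a background of 10.7%, and 0 lower, against 7.26%. Hdac11 was then 1.31-fold higher (1.19 to 1.44; adjusted p = 0.000144 by edgeR). Hdac5 came to 1.23-fold (0.942 to 1.61; adjusted p = 0.296 by edgeR) and Hdac6 to 1.24-fold (1.01 to 1.52; adjusted p = 0.132 by edgeR). Hdac2 came to 1.37-fold lower (1.03 to 1.84; adjusted p = 0.114 by edgeR). Hdac7 turned from 1.18-fold to 1.12-fold lower, within its wide interval, and Hdac1 and Hdac3 moved up to 1.32-fold (1.02 to 1.71) and 1.11-fold (0.993 to 1.24), neither called. The correction removes any real difference that goes along with GC content or length, and the part of composition in the uncorrected values cannot be told apart from such a difference.

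**Figure D3:**
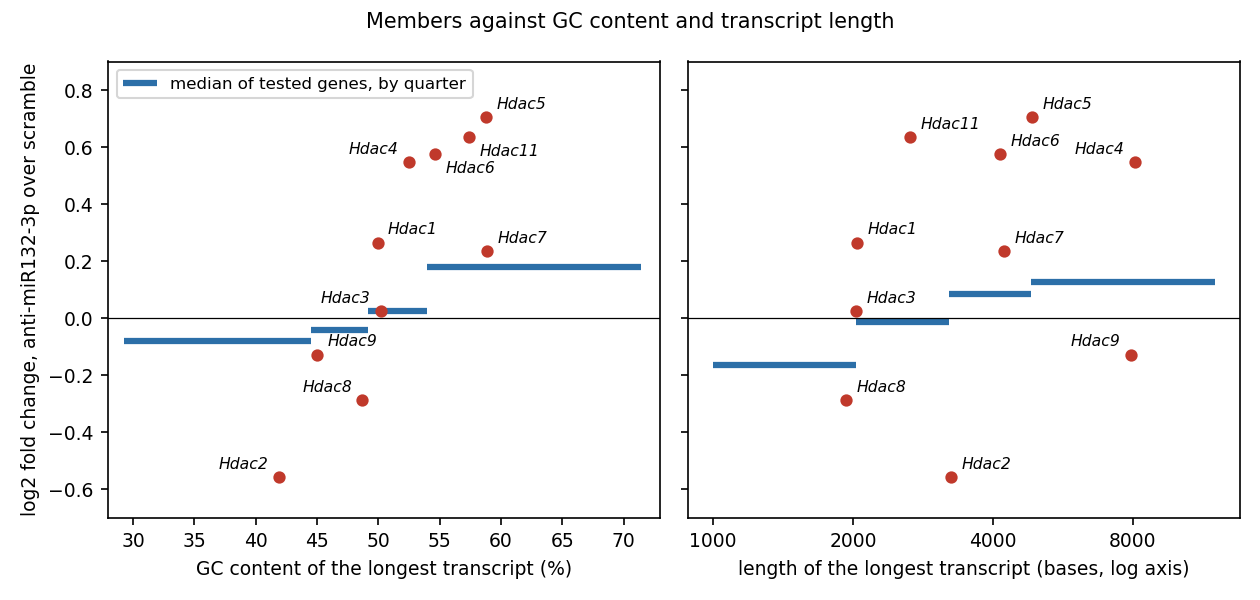
Log2 fold change of each member (red) against GC content (left) and length on a log axis (right) of its longest transcript, with the median of all tested genes in 4 bins (blue bars; the outer length bins are drawn from 1000 to 12000 bases only). Hdac2 lies low at 41.9% GC, and Hdac5, Hdac6 and Hdac11 lie above the median of the bin richest in GC.

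Counting was checked for overlapping genes, since the strand setting is not given in the sources used here. In GENCODE M21, 17.9% of the annotated exon bases of Hdac11 are shared with Gm14573 and Gm44002 on the opposite strand, and both had 0 counts. These 0 counts cannot show whether reads in the shared bases were left out for Hdac11. Exons of Hdac4 share 22.4% of their bases with the opposite-strand Gm26720, so the Hdac4 value is also uncertain in this respect. Hdac7 shares 29 bases with Slc48a1, and Hdac5 holds Mir8101, which had 0 counts. Hdac1, Hdac2, Hdac3, Hdac6, Hdac8 and Hdac9 share none.

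The sorted cells carried markers of ganglion cells and of other retinal cells. All 12 ganglion cell markers had at least 10 counts over the 4 libraries. So had all 10 Müller glia markers, 6 of 10 amacrine, 7 of 10 rod, 5 of 12 leukocyte and 2 of 6 endothelial markers. The ganglion cell markers summed to 1931 to 1966 CPM with the scramble shRNA and 2100 to 2163 with the anti-miR132-3p shRNA. They did not move together: Thy1, Tubb3 and Nefm were called higher (Thy1 226 against 333 CPM) and Pou4f1 lower (40.4 against 27.6 CPM), and Pou4f2 had only 8 summed counts against 7. The 10 amacrine markers summed to 3085 to 3115 against 4239 to 4247 CPM, of which Pax6, which ganglion cells also express, had 1634 against 1609 and Gad2 378 against 521, while Gad1, Slc32a1, Tfap2b and C1ql2 were at 0 in all libraries. The 10 Müller glia markers summed to 1785 to 1789 against 2337 to 2349 CPM, mostly from Dkk3 and Clu. These did not move together either. Dkk3 (1096 against 1618 CPM) and Apoe (19.1 against 63.2 CPM) were called higher, while Clu differed little (560 against 555 CPM). Rlbp1 (12.2 against 7.54 CPM), Glul (71.2 against 66.4 CPM), Slc1a3, Aqp4 and Hes1 were on the lower side. Sox9 and Vim were on the higher side, and none of these 7 was called. Of 10 rod markers, Gnat1 and Rcvrn were among those at 0, and the sum was 90.2 to 92.7 against 13.4 to 16.8 CPM. The 12 leukocyte markers summed to 43.7 to 58.3 against 95.1 to 110 CPM. Of these, Cd74 had 5 summed counts against 126. The 6 endothelial markers were at 2.77 to 3.87 against 9.86 to 11.6 CPM, with Cldn5 and Cdh5 at 0. The part of a different cell mix in the Hdac values was not tested, and fewer cells expressing a gene and less RNA per cell cannot be told apart in sorted pools.

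The deacetylases outside these 10 genes were not called. Hdac10, the other class IIb enzyme, had 63 summed counts against 72, a fold of 1.20 (0.841 to 1.71). The sirtuins, the class III enzymes that use NAD, were at 0.782-fold to 0.917-fold, on the lower side for each of the 7, with 0 called by edgeR. Over all tested genes the shares called were 13.5% higher and 10.4% lower. Sirt3, the main deacetylase of mitochondria, had 321 against 248 counts and was nearest to the threshold, 1.24-fold lower (1.04 to 1.46; adjusted p = 0.0588 by edgeR). Sirt2, which shares tubulin as a substrate with Hdac6, had 347 against 287 counts, 1.15-fold lower (0.985 to 1.35).

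Partners of Hdac1 and Hdac2 were called in both directions. Of all tested genes 13.5% were called higher and 10.4% lower, and 10.7% and 7.26% with the GC and length correction. In the NuRD complex, which joins deacetylase and remodelling activity, 4 of 12 tested members were called higher and 1 lower. Mta3, a subunit that binds the deacetylases, had 40 summed counts against 91, 2.38-fold higher (1.63 to 3.55), and the remodelling ATPase Chd4 went from 120 to 161 CPM, 1.35-fold higher (1.18 to 1.53). Chd5, a neuronal remodeller of the same family, was 1.60-fold higher (1.16 to 2.22). Rbbp4, the histone chaperone that NuRD and Sin3 share, went from 349 to 252 CPM, 1.39-fold lower (1.27 to 1.52). With the GC and length correction, Mta3 and Rbbp4 alone of the NuRD list were called.

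In the Sin3 complex 1 of 11 was called higher and 1 lower, where 13.5% and 10.4% of all tested genes were. Sap130 was 1.59-fold higher (1.16 to 2.19), and Ing1, which reads methylated histone H3, was 1.45-fold lower (1.12 to 1.90). With the GC and length correction Ing1 and Suds3 were called lower and Sap130 was not called. Of 8 CoREST and MiDAC members tested, 2 were called higher: Phf21a, a histone reader of CoREST, 1.79-fold (1.40 to 2.29), and Trerf1, a MiDAC subunit, 1.70-fold (1.33 to 2.18). Rcor1, the CoREST scaffold, had 90 summed counts against 59 and was not called.

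Around Hdac3, the corepressor Ncor1, which activates it, had 309 and 319 counts against 270 and 271. The anti-miR132-3p libraries were lower, but Ncor1 was called, as lower, only with the GC and length correction (adjusted p = 0.0325 by edgeR), and not without it (adjusted p = 0.165 by edgeR).

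The list around the class IIa enzymes, of Mef2 factors, 14-3-3 proteins and kinases, had 4 of 20 tested members higher and 7 lower. The shares over all tested genes were 13.5% higher and 10.4% lower. Camk1, a calcium-dependent kinase, went from 547 to 362 CPM, 1.51-fold lower (1.41 to 1.62), and Prkd3, a kinase of the protein kinase D family, had 26 counts against 9, 2.76-fold lower (1.25 to 6.69). Camk2a was 1.36-fold higher (1.13 to 1.64) and Sik3, a salt-inducible kinase, 1.48-fold higher (1.11 to 1.96). With the GC and length correction Camk1 and Prkd3 were called, and Camk2a and Sik3 were not (adjusted p = 0.277 and 0.351 by edgeR). Among the 14-3-3 genes, Ywhab, Ywhae, Ywhah, Ywhaq and Ywhaz were called lower and Ywhag higher. These are highly counted genes, for which small differences pass the test: Ywhaz, with 4526 against 4014 summed counts, was 1.08-fold lower (1.03 to 1.12). With that correction Ywhab, Ywhah and Ywhag were called, and the log2 fold changes of Ywhae and Ywhaq turned to 0.019 and 0.079. The Mef2 genes tested, Mef2a, Mef2c and Mef2d, were not called.

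The enzymes that add acetyl groups were not called either way. Of 12 histone acetyltransferases tested, 0 were called by edgeR, and their sum was 829 against 828 CPM. Crebbp, the CREB-binding protein, had 1272 against 1187 summed counts, and Ep300 had 52 against 67. With the GC and length correction 1 of the 12, Crebbp, was called lower (adjusted p = 0.00365 by edgeR). Of 10 bromodomain readers, 2 were called higher and 1 lower, where 13.5% and 10.4% of all tested genes were. Brd3 was 1.22-fold lower (1.10 to 1.34). With the correction 0 were called higher, and Brd1, Brd2 and Brd3 were called lower, against 10.7% and 7.26% of all tested genes.

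Beside Hdac6, Atat1, the acetyltransferase that acts on the same lysine of tubulin, had 151 against 122 counts and was not called. Of 9 genes in that list, Cttn, which encodes the Hdac6 substrate cortactin, was 1.47-fold higher (1.33 to 1.61). Tubb3, the neuronal beta-tubulin, was higher by a factor of 1.42 (1.30 to 1.55). The chaperone genes Hsp90aa1 and Hsp90ab1, whose products are substrates of Hdac6, were 1.32-fold lower (1.27 to 1.37) and 1.30-fold lower (1.26 to 1.35). These 4 calls, 2 higher and 2 lower of 9 tested, were also made with the GC and length correction. Of 6 tested genes of REST repression, a pathway in which neuronal genes are silenced through Hdac1 and Hdac2, 0 were called by edgeR. Of all tested genes 13.5% were called higher and 10.4% lower, and 10.7% and 7.26% with the correction.

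**Figure D4:**
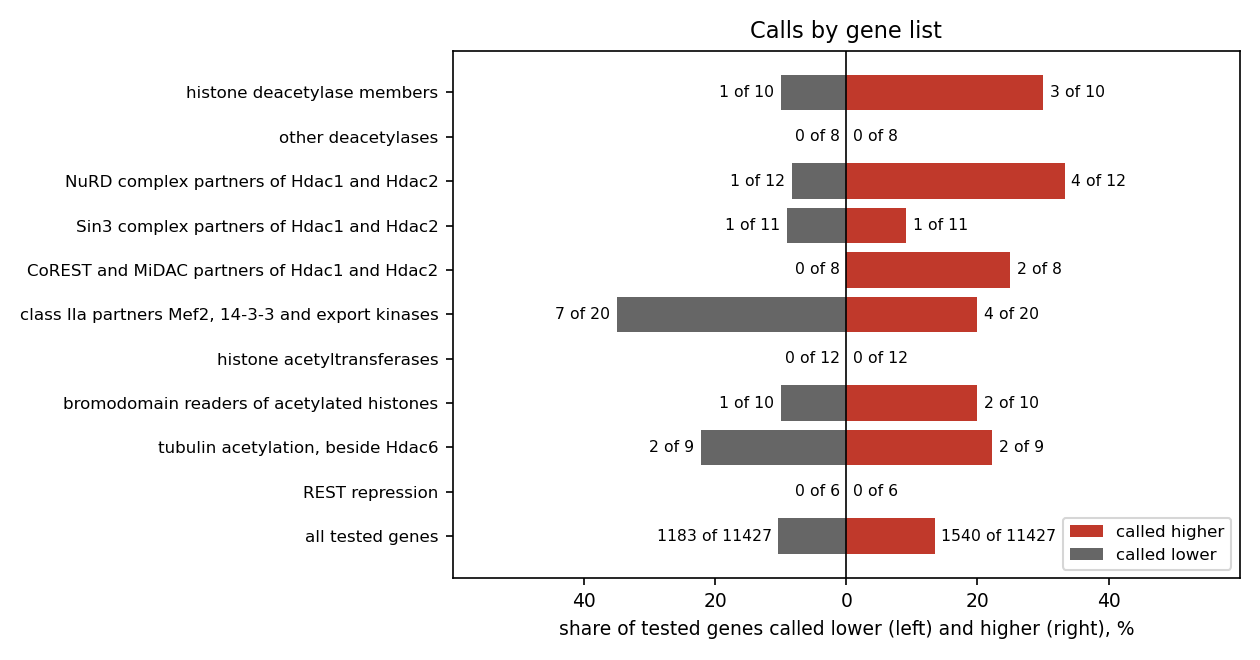
Share of tested genes called lower (grey, left) and higher (red, right) by edgeR's test at an adjusted p under 0.05, with counts, for the 10 histone deacetylases, each list of partners drawn and all tested genes. The members stand at 3 of 10 higher and 1 of 10 lower, against 13.5% and 10.4% of all tested genes. The other deacetylases, the acetyltransferases and the REST list have 0 calls.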

How the data were processed

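The authors deposited whole-number counts of reads for each gene, in 4 columns. The submitters' processing notes name Cufflinks, Cuffnorm and Cuffdiff, Trimmomatic 0.39, SAMtools 1.10 and HISAT2 2.2.1, and the mouse build GRCm39. Which program counted the reads, with what annotation release and strand option, is not given in the sources used here. Identifiers without a symbol held 0.433% to 0.437% of counts. GENCODE M21, of an older build, gave lengths, GC content and 3' UTRs, so no gene coordinates are printed.

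The test was edgeR 4.0.16 in R 4.3.3 (filterByExpr, TMM, glmQLFit with legacy set to FALSE, glmQLFTest), and a gene was called at an adjusted p under 0.05. The 11427 tested genes held 98.6% of counts. Folds are ratios of summed counts over TMM-scaled library sizes, with exact Clopper-Pearson 95% intervals. Levels per kilobase have exact Poisson intervals. A count of 3 in 1 library is 1.66 to 1.74 CPM. The GC and length correction used splines with 4 degrees of freedom per library. Code was tested on simulated counts.

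Named were all 10 members, the other deacetylases and, of each partner list, up to 4 called genes of the largest fold with at least 20 counts in a group; further partner genes were added on seeing their values. The members and lists were chosen with earlier results of these data known. Alternatives covered scaling, filters, limma 3.58.1, DESeq2 1.42.0, thresholds, left-out libraries, summed pairs and a replicate block. Some genes of the partner and marker lists are not reported here.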

Additional observations from a re-analysis of the deposited data

How the results depend on the processing

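The members had 3 calls higher and 1 lower, and all tested genes 1540 and 1183. With no low-count filter these were 0 and 0 members and 1 and 2 genes. DESeq2 gave 1 and 0 members and 481 and 274 genes. The GC and length correction gave 1 and 0 members. Taking each pair as its sum, with a coefficient of variation set to 0.1, gave 0 and 0 members and 470 and 56 genes, and setting it to 0.2 gave 0 and 0 members and 50 and 6 genes. An adjusted p under 0.01 gave 0 members lower and 856 and 547 genes, and a fold of at least 1.5 as well gave 0 members lower and 969 and 268 genes. Library totals alone and a filter of 10 counts in 2 libraries each gave 0 members lower. Leaving out 1 library gave 0 to 0 members and 0 to 0 genes in both directions, with 2652 to 2767 genes and 2 to 4 members at an unadjusted p under 0.05. There the remaining library of a group is taken to vary as the other group does. The prior degrees of freedom were 1.51 to 1.67 there and 1.16 without the filter, against 14.1 in the reported fit. The cause of these changes was not tested.

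Leaving out 1 library moved the log2 fold change of Hdac3 between -0.017, without scramble replicate 1, and 0.057, and with the GC and length correction that of Hdac7 was -0.16. The sign of the other 8 members was kept in all 16 settings. Hdac11 ranged from 0.39 to 0.68, Hdac5 from 0.30 to 0.91, Hdac6 from 0.31 to 0.63 and Hdac2 from -0.69 to -0.44.

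Libraries of the same number in the 2 groups did not deviate together (correlation 0.013 across genes). The libraries of a group differed only within sampling noise, so this value cannot show whether equal numbers were handled together. With the replicate block, 3 members were called higher and 1 lower, of 1740 and 1437 genes.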

Other observations

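Other enzymes of chromatin, from 5 lists chosen after the data had been examined, had 10 of 48 tested genes called higher and 1 lower by edgeR (20.8% and 2.08%, where 13.5% and 10.4% of all tested genes were called). With the GC and length correction 6 were called higher and 4 lower (12.5% and 8.33%), against 10.7% and 7.26% of all tested genes. Of 7 tested genes of DNA methylation and demethylation, 2 were called higher by edgeR and 0 lower. Dnmt1, the maintenance DNA methyltransferase, was counted 73 and 58 times in the scramble libraries and 128 and 133 times in the anti-miR132-3p libraries, 2.09-fold higher (1.68 to 2.59). Of 14 lysine demethylases, 3 were called higher and 1 lower. Kdm4a, which demethylates lysines of histone H3, had 23 and 21 counts against 63 and 53, 2.76-fold higher (1.94 to 4.00), and Kdm7a was 1.45-fold lower (1.18 to 1.78).

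Of 12 SWI/SNF remodelling subunits, 3 were called higher and 0 lower, where 13.5% and 10.4% of all tested genes were. Smarcc2, a core subunit of the complex, had 132 and 142 counts against 329 and 326, 2.50-fold higher (2.17 to 2.89), more than any of the 10 histone deacetylases. Of 6 genes of Polycomb repressive complex 2 and 9 genes of H3K4 methylation, 1 each was called higher, Jarid2 at 1.52-fold (1.26 to 1.83) and Kmt2d at 1.49-fold (1.22 to 1.82). The 6 called higher with the correction were Dnmt1, Tet2, Jarid2, Kdm3a, Kdm4a and Smarcc2, and the 4 called lower were Kdm7a, Setd1b, Arid1a and Smarce1. Of the last 4, Kdm7a alone was called without the correction. The call of Kmt2d was lost with it (adjusted p = 0.702 by edgeR).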
